A study of Mus musculus with 12 samples.

Results

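The set described here is a group of 9 genes for B cell co-receptors and surface regulators: Ms4a1, Cd22, Cd72, Siglecg, Cr2, Cd37, Cd81, Cd38 and Cd5. Its members were taken by name, as every probe set that the platform annotation assigns to one of these symbols, which gave 11 of the 45037 probe sets and 8 of the 9 genes. Cd38 was not analysed here. The data are 12 Affymetrix arrays with 1 colour, each of RNA from pre-pro-B cells from Ebf1-/- mice of strain C57BL/6, so every group lacked functional endogenous EBF1. The 4 groups held 3 arrays each: cells given the Mig-EBF1 retrovirus and their MigR1 controls in the first set, and cells given the Mig-PAX5 retrovirus and their MigR1 controls in the second set. MigR1 carries GFP without a factor. All cells were grown on a layer of OP9 cells, a stromal line from mouse bone marrow, with 4% fetal calf serum, 10 ng/ml SCF, 10 ng/ml Flt3L and 5 ng/ml IL-7, and the GFP-positive fraction was sorted 2 days after infection. The comparisons ask which transcripts change when EBF1 is restored, or when PAX5 is supplied, in progenitors that do not become B cells by themselves.

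Co-receptors and surface regulators set how strongly a B cell answers its antigen receptor. CD21 (Cr2), a complement receptor, lowers the threshold of the receptor, while CD22, CD72, Siglec-G and CD5 carry or recruit inhibitory signals, largely through tyrosine phosphatases. CD20 (Ms4a1) and the tetraspanins CD37 and CD81 are membrane organisers found on B cells, and CD81 is widely expressed on other cells too. EBF1 and PAX5 are successive transcription factors of B cell specification and commitment.

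Promoter windows of the Cd22, Siglecg and Cd72 genes are shown because Siglecg and 1 probe set of Cd22 rose with PAX5 and Cd72 lay above its controls with both factors, and because the sites of EBF1 and PAX5 are known. The windows run from 250 bases before to 50 bases after a RefSeq start site on GRCm38.p6, 5′ to 3′ on the strand of the gene. Cd22 lies at chr7:30878979-30879278 on the minus strand, Siglecg at chr7:43407989-43408288 on the plus strand and Cd72 at chr4:43454577-43454876 on the minus strand. Capitals mark matches to the EBF1 core CCCNNGGG, or to the full EBF1 palindrome, which is that core with a T before it and an A after it, and to the letters GCGTGAC and GCATGAC of the PAX5 core, all searched on both strands.
Cd22: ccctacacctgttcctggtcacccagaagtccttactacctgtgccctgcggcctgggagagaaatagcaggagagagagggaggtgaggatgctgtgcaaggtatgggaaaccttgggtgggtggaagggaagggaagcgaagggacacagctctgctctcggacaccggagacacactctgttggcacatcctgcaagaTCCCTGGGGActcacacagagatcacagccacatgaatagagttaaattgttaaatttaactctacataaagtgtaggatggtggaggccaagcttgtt
Siglecg: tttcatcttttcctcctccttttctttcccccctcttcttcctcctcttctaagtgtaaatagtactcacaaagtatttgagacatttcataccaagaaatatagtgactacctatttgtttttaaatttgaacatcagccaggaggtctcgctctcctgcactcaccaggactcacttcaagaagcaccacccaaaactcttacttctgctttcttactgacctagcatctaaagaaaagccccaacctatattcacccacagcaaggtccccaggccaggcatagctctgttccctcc
Cd72: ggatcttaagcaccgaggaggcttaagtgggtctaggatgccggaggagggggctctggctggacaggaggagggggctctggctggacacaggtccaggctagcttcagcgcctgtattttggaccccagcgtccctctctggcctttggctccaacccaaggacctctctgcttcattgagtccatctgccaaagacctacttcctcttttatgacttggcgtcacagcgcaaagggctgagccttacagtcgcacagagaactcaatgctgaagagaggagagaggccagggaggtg
The Cd22 window held the full palindrome, TCCCTGGGGA, starting 49 bases before the start site. Of 32851 windows of this length, 0.904% held the palindrome, 13.7% CCCNNGGG, 2.09% GCGTGAC and 2.17% GCATGAC. Among the 8 members with a window, which include Cd38, the Cd81 window also held CCCNNGGG, in 2 places, and the windows of the remaining members, a second overlapping Siglecg window included, held none of these letters. A match is a string of letters and was not measured as a bound site. A window of Ms4a1 is not shown.

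The median intensity of an array was 55.1 to 60.6 in set 1 and 65.3 to 68.9 in set 2. Precision is limited by how few arrays there are. Over 12889 bright probe sets, equal-numbered control arrays of the 2 sets differed by a robust SD of 0.040 to 0.10 on the log2 scale. For unequal numbers it was 0.29 to 0.38, so equal-numbered controls were counted as 3 control samples. Dim probe sets were averaged in the same way, although this check did not cover them. PAX5 arrays 2 and 3 differed by an SD of 0.079, against 0.22 to 0.37 for the remaining pairs of arrays in a group, and were averaged into 1, so PAX5 has 2 samples in the tests. Whether the replicates are separate cultures or animals is not in the labels, and the p-values therefore cover the spread among these arrays, which may be technical. All 9 measured markers of pre-pro-B cells, among them Ptprc, Flt3 and Il7r, lay above the array median in both control sets. That level does not single out a cell type. Of 5 dendritic markers 1 lay below it in control set 1 and 0 in control set 2. Of 7 T cell markers 4 lay below it in each control set, and of 8 myeloid markers 5 and 4. Of 15 markers of OP9-like stroma 0 passed the test with EBF1 or PAX5, but their summed intensity was 4376, 4033 and 16543 in EBF1 arrays 1, 2 and 3, against 5647, 5375 and 4901 in the controls of set 1. In set 2 that sum was 5581, 6568 and 6697 in PAX5 cells, against 6008, 5542 and 5209 in controls. Igfbp4 made up most of the sum in the controls of set 1, at 3343, 4736 and 4079, against 1561, 3125 and 3984 in EBF1 cells. The median log2 difference of the 15 markers from the controls was 0.79, -0.12 and 2.80 in EBF1 arrays 1, 2 and 3, and their median change in the fit was 1.29. Of these markers 0 were at the floor on every array, and Cxcl12, a stromal chemokine, read 142, 134 and 3367 in EBF1 cells, against 128, 21.3 and 129 in controls. Pax5 transcript read 1849, 891 and 932 in PAX5 arrays 1, 2 and 3, against 12.8, 8.97 and 7.98 in controls of set 2. Ebf1 probes read 1886, 2477 and 1917 in EBF1 cells, against 2027, 2173 and 2148 in controls of set 1, and where they lie relative to the mutated part and the viral insert is not given, so this level checks nothing.

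With EBF1 the transcript of CD20 rose, and no other member passed the test. Both Ms4a1 probe sets rose, by 7.15 and 7.001 in log2(intensity + 16), and the controls lay below the array medians. At an adjusted p under 0.05, limma called 2 of 11 member probe sets higher and 0 lower, where 0.0933% of all probe sets were called higher and 0.00444% lower (0.0977% in either direction). The 3 EBF1 arrays lay wholly above the 3 controls of their set for 6 member probe sets and wholly below for 2, against 7.06% and 6.14% of all probe sets, or 8 against 13.2% in either direction. The median log2 change was 0.27 over the 11 probe sets and 0.02 over all 45037. Over all probe sets 44 passed with EBF1. That count was 597 without EBF1 array 3, and 18, 19, 19, 23 and 22 without control array 1, 2 or 3, EBF1 array 2 or PAX5 array 1. With set 1 fitted alone it was 18, and 7 with equal-numbered EBF1 and control arrays paired in that fit, and both Ms4a1 probe sets were among the 7.

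Ms4a1 encodes CD20, a membrane protein that marks B cells from the pre-B stage on. Its probe set 1423226_at read 7028, 5494 and 3029 in EBF1 arrays 1, 2 and 3, against 14.5, 22.4 and 19.3 in the controls. Every EBF1 array lay far above every control, and array 3 was the lowest of the EBF1 arrays. The log2 change of intensity plus 16 was 7.15 (SE 0.29, limma adjusted p = 4.8e-05). The second probe set, 1450912_at, read 6989, 4692 and 2945 in EBF1 cells, against 20.9, 22.97 and 16.3 in controls, and its change was 7.001 (SE 0.27, adjusted p = 4.8e-05). Since the controls were dim, the size of these changes depends on the added constant: it ran from 5.91 to 7.97 for the first probe set and from 5.79 to 7.78 for the second over the alternatives, all of which passed. EBF1 array 3, the lowest for Ms4a1, was also the array with the high stromal sum. Without it the changes were 7.49 and 7.32. In bulk RNA, fewer cells that express a gene and less RNA per cell cannot be told apart.

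With PAX5 neither Ms4a1 probe set passed. Probe set 1423226_at read 36.4, 33.0 and 37.6 in PAX5 arrays 1, 2 and 3, against 16.1, 38.2 and 30.6 in the controls of set 2, and the groups overlapped. Its log2 change was 0.26 (95% interval -0.47 to 0.99, adjusted p = 0.91). Probe set 1450912_at read 2.43, 6.01 and 1.24 in PAX5 cells, against 4.76, 8.99 and 1.73 in controls, also with overlap, and stood at -0.15 (interval -0.84 to 0.55, adjusted p = 0.96). The EBF1 change exceeded the PAX5 change by 6.89 (SE 0.32, adjusted p = 4.4e-05) and 7.15 (SE 0.31, adjusted p = 3e-05) in the 2 probe sets. The EBF1 and PAX5 comparisons use the same 3 control samples. Each such difference was tested between the EBF1 and PAX5 samples alone, so its SE, interval and p-value hold no spread among the controls. These can be too small where equal-numbered controls of the sets do not move together.

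**Figure D1:**
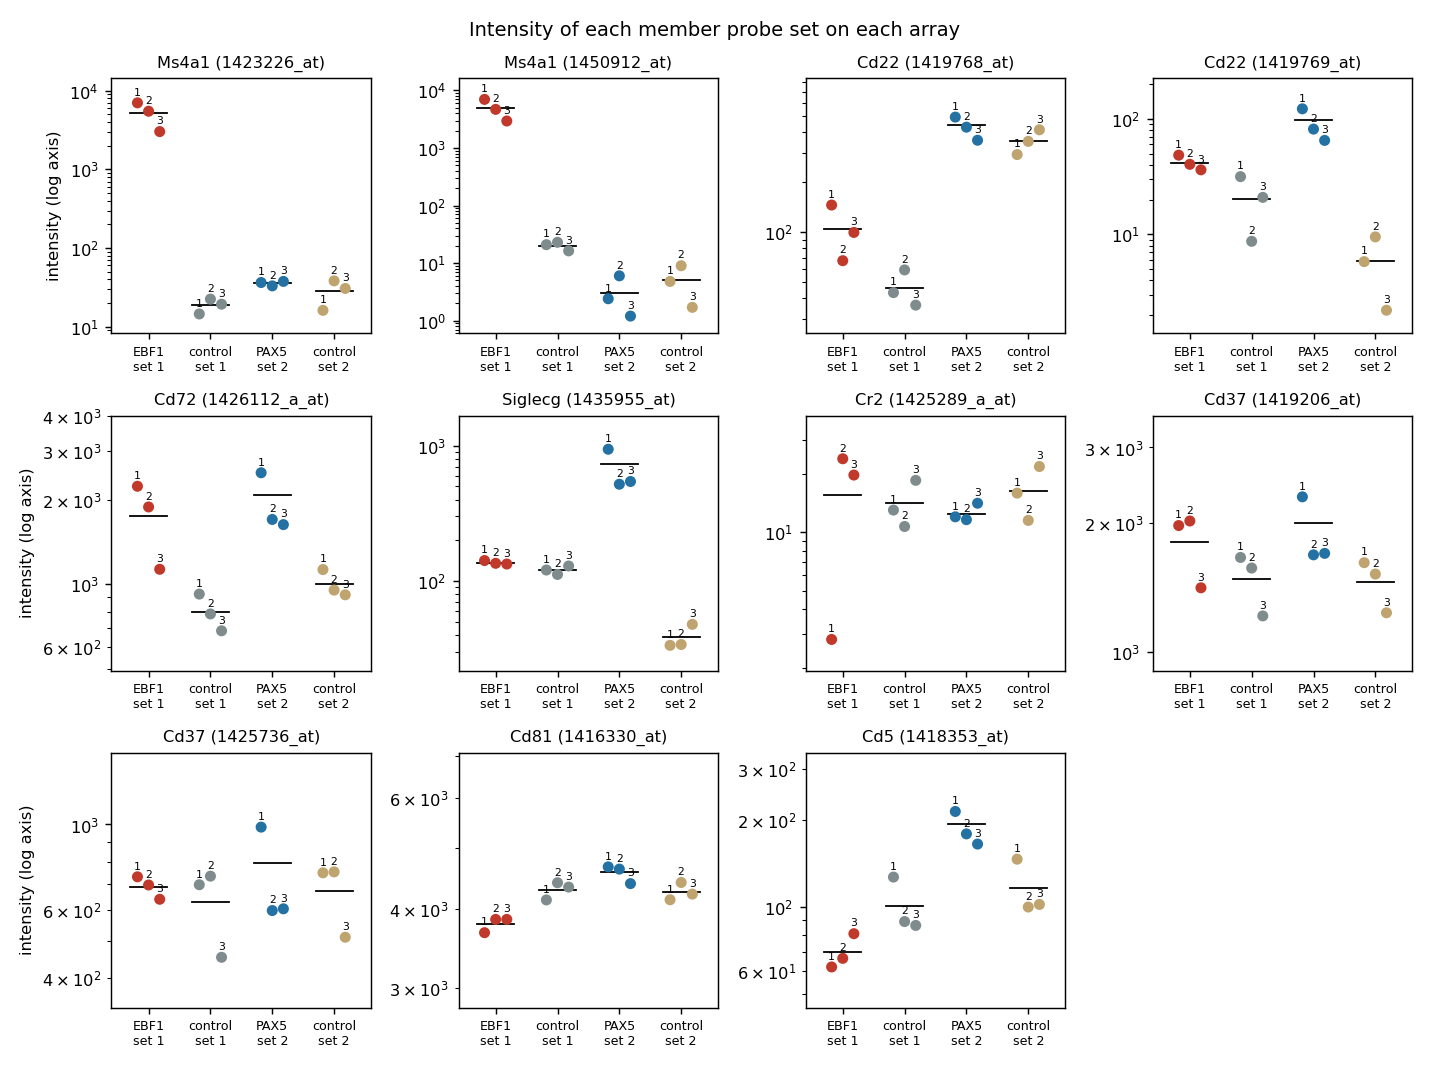
Intensity of the 11 probe sets on each array (log axis, which differs between panels); points are arrays labelled by number, and lines are group means, with PAX5 arrays 2 and 3 averaged first. Ms4a1 stands at 2945 to 7028 in EBF1 cells and under 40 elsewhere, and Siglecg at 519 to 940 in PAX5 cells.

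With PAX5 Siglecg rose, and Cd22 rose by the dimmer of its 2 probe sets, while the other Cd22 probe set and the remaining members did not pass. Limma called 2 of 11 member probe sets higher with PAX5 and 0 lower, where 0.464% of all probe sets were called higher and 0.0511% lower (0.515% in either direction). The 3 PAX5 arrays lay wholly above the controls of set 2 for 5 member probe sets and wholly below for 0, against 8.14% and 8.77% of all probe sets (16.9% in either direction). The median log2 change was 0.32 over the members and -0.01 over all probe sets. Over all probe sets 232 passed with PAX5. That count was 142, 119 and 99 without control array 1, 2 or 3, and 50 without PAX5 array 1, where the 1 PAX5 sample left is taken to be as variable as the rest. The 2 member calls held in each of these fits.

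Siglecg encodes Siglec-G, a sialic acid binding lectin that restrains receptor signalling, best known from B-1 cells. It read 940, 519 and 544 in PAX5 arrays 1, 2 and 3, against 33.6, 34.1 and 48.0 in the controls. No PAX5 array came near a control, and PAX5 array 1 was the highest. The log2 change was 3.74 (SE 0.22, limma adjusted p = 0.00021) and ran from 2.92 to 4.18 over the alternatives, all past the threshold. In EBF1 cells Siglecg read 142, 135 and 134, against 121, 112 and 129 in controls. The groups did not overlap, but the log2 change was 0.16 (interval -0.28 to 0.61) with adjusted p = 0.85. The EBF1 change was smaller than the PAX5 change (difference -3.57, SE 0.22, adjusted p = 0.00019).

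Cd22 encodes CD22, an inhibitory lectin that binds sialic acids on the B cell surface and recruits the phosphatase SHP-1. Probe set 1419769_at read 122, 81.7 and 65.1 in PAX5 arrays 1, 2 and 3, against 5.79, 9.47 and 2.25 in the controls. The groups were far apart. The change in log2 was 2.36 (SE 0.21, limma adjusted p = 0.002), and its range over the alternatives, all past the threshold, was 1.20 to 3.96. With set 2 fitted alone, where controls are not averaged across the sets, the adjusted p was 0.034. Probe set 1419768_at, by contrast, read 493, 429 and 358 in PAX5 cells, against 294, 352 and 414 in controls, and the groups overlapped. Its log2 change was 0.32 (interval -0.27 to 0.90, adjusted p = 0.83). The probe sets therefore disagreed on Cd22 with PAX5. In a separate limma fit over 18193 genes, their mean gave 1.34 with adjusted p = 0.019. With the brighter probe set as the value of the gene it was 0.32 with adjusted p = 0.80. The mean takes in the dim probe set, so it does not settle the disagreement.

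Both Cd22 probe sets read higher on every EBF1 array than on any control of set 1, without passing the test. For 1419768_at the values were 146, 67.4 and 99.7 in EBF1 cells, against 43.3, 59.3 and 36.4 in controls, a log2 change of 0.91 (SE 0.23, interval 0.39 to 1.43, adjusted p = 0.22). For 1419769_at they were 48.5, 40.4 and 36.2, against 31.6, 8.72 and 20.9, a change of 0.71 (SE 0.19, adjusted p = 0.24). On 1419769_at, equal-numbered control arrays of set 2 and set 1 differed by -1.13 to 0.04 in log2. The difference between the EBF1 and PAX5 changes passed for 1419769_at alone, at -1.65 (SE 0.21, which leaves that spread out, adjusted p = 0.0099). Without PAX5 array 1 that difference was -1.33 with adjusted p = 0.11, and the call was also lost with all 12 arrays counted separately (0.11).

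Cd72 lay above its controls with both factors without passing. It encodes an inhibitory lectin-like receptor whose ligand is the semaphorin Sema4d. Cd72 read 2242, 1891 and 1133 in EBF1 arrays 1, 2 and 3, against 924, 784 and 683 in controls. Every EBF1 array was above every control, with array 3 closest to them. The log2 change was 1.08 (SE 0.26, interval 0.49 to 1.67) with limma adjusted p = 0.20. Without EBF1 array 3, the array with the high stromal sum, it was 1.36 and passed (adjusted p = 0.022). The part of the stromal transcripts in this was not tested. In set 2, Cd72 read 2505, 1706 and 1635 in PAX5 cells, against 1130, 954 and 918 in controls, again with no overlap and no pass (1.03, SE 0.29, interval 0.36 to 1.69, adjusted p = 0.29). The changes differed by 0.05 (interval -0.61 to 0.71, adjusted p = 0.96).

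Cd5, an inhibitory scavenger receptor of T cells and B-1a cells, lay below its controls with EBF1 and above them with PAX5. It read 62.1, 66.5 and 80.9 in EBF1 cells, all below the 127, 89.1 and 86.4 of their controls, with a log2 change of -0.43 (SE 0.17, interval -0.82 to -0.05, adjusted p = 0.45). In PAX5 cells it read 214, 179 and 165, all above the 146, 99.99 and 102 of their controls, with a change of 0.67 (SE 0.19, interval 0.24 to 1.10, adjusted p = 0.29). Neither change passed, but their difference did, at -1.10 (SE 0.19, limma adjusted p = 0.036). That call was lost in 7 of 18 alternatives, with adjusted p up to 0.42: 0.056 and 0.059 without control array 2 or 3, 0.12 and 0.11 without EBF1 array 1 or 2, 0.42 without PAX5 array 1, 0.084 with a constant of 1 and 0.13 with all 12 arrays counted separately. For the difference, limma called 2 of 11 member probe sets higher and 3 lower, against 0.28% and 0.77% of all probe sets (5 against 1.05% in either direction). These were both Ms4a1 probe sets on one side, and Siglecg, Cd22 1419769_at and Cd5 on the other. Over all probe sets 473 passed for the difference, 305 without control array 3, 234, 216 and 874 without EBF1 array 1, 2 or 3, and 78 without PAX5 array 1. For the members, the count was 3 without PAX5 array 1.

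**Figure D2:**
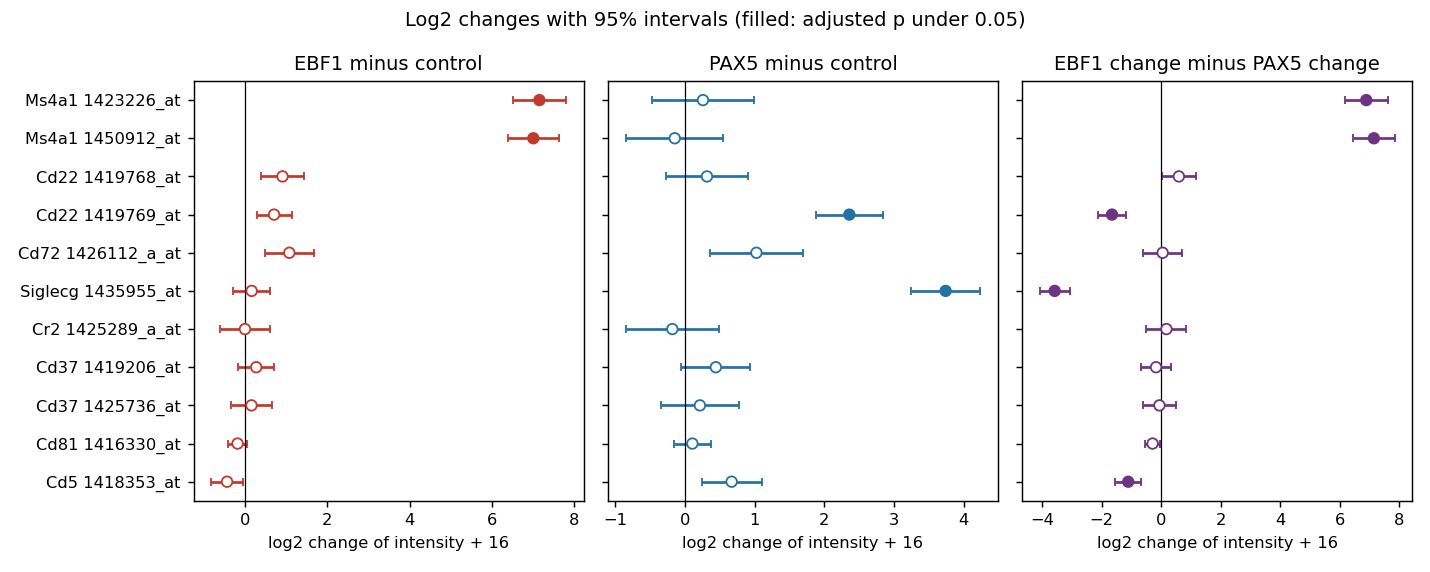
Log2 change of intensity plus 16 for each probe set (points) with its 95% interval (bars), for EBF1 minus control, PAX5 minus control and the difference of the changes; filled points passed at adjusted p under 0.05, and the scales of the panels differ. Ms4a1 stands at 7.15 and 7.001 with EBF1, and Siglecg at 3.74 with PAX5.

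The tetraspanins were bright in every group and did not pass in either comparison. Cd81, a widely expressed tetraspanin, read 3668, 3851 and 3851 in EBF1 cells, all below the 4135, 4404 and 4334 of their controls, a log2 change of -0.18 (interval -0.41 to 0.06, adjusted p = 0.63). In PAX5 cells it read 4667, 4629 and 4389, against 4138, 4408 and 4224 in controls, a change of 0.11 (interval -0.16 to 0.37). Cd37, a tetraspanin of mature lymphocytes, read 1970, 2019 and 1409 by its probe set 1419206_at in EBF1 cells, against 1659, 1567 and 1211 in controls, and the groups overlapped (0.27, interval -0.17 to 0.72, adjusted p = 0.70). In PAX5 cells it read 2300, 1683 and 1696, all above the 1613, 1518 and 1232 of the controls (0.44, interval -0.05 to 0.94, adjusted p = 0.64). The second Cd37 probe set read 732, 697 and 640 in EBF1 cells, against 698, 735 and 453 in controls, a log2 change of 0.16. It read 984, 598 and 604 in PAX5 cells, against 749, 754 and 510 in controls, a change of 0.22, with overlap in both sets.

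Cr2, the complement receptor of mature B cells, was dim throughout. It read 2.79, 23.9 and 19.7 in EBF1 cells, against 13.0, 10.7 and 18.5 in controls, and 11.97, 11.6 and 14.1 in PAX5 cells, against 15.9, 11.5 and 21.8 in controls. All of these lie below the array medians. The log2 changes were 0.00 (interval -0.60 to 0.60) with EBF1 and -0.18 (interval -0.85 to 0.49) with PAX5.

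The members' changes also differed between arrays of a group. The change was larger in PAX5 array 1 than in the mean of PAX5 arrays 2 and 3 for 9 of 11 member probe sets, against 51.2% of all probe sets. PAX5 array 1 was also the array with the most Pax5 transcript, and the part of this in the order was not tested. EBF1 array 1 gave the highest change of the EBF1 arrays for 7 of 11, against 31.4% of all probe sets, and EBF1 array 3 the lowest for 7 of 11, against 34.4%. Siglecg changed by 4.14 in PAX5 array 1 and by 3.34 in the mean of the others, and Cd72 by 1.32 and 0.74. These counts describe probe sets of which some share a gene, and no test was made on them.

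**Figure D3:**
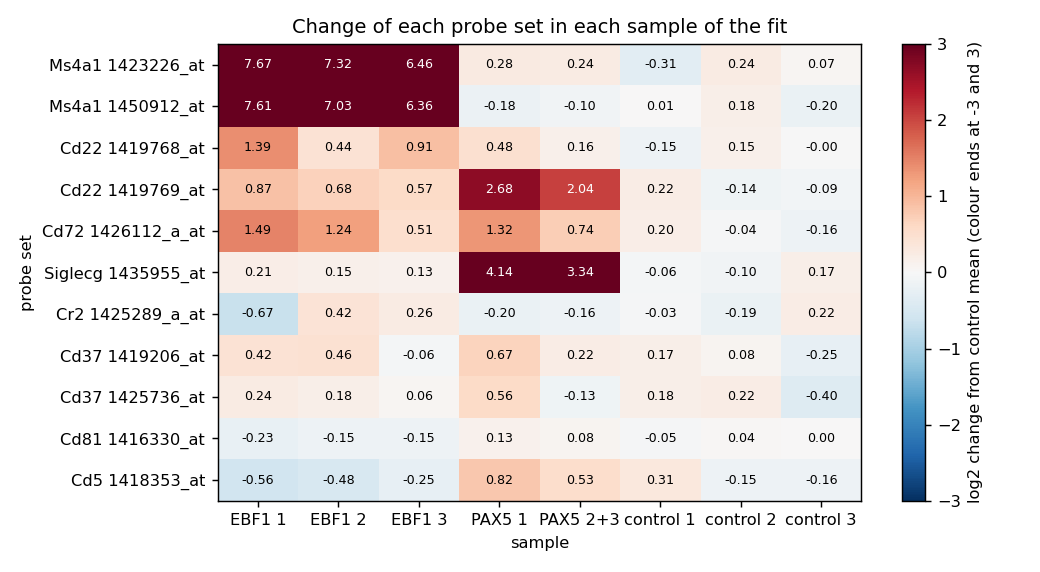
Log2 change from the control mean (colour and printed value) of each probe set (rows) in the 3 EBF1, 2 PAX5 and 3 control samples of the fit (columns). The Ms4a1 rows are high in the EBF1 columns, at 6.36 to 7.67, and the Siglecg row in the PAX5 columns, at 3.34 and 4.14.

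The control values themselves limit what 4 of these probe sets can show. Equal-numbered control arrays of the sets agree closely on bright probe sets, yet some members read very differently in set 2 and set 1. Cd22 1419768_at averaged 353 in control set 2 and 46.3 in control set 1, an offset of 2.57 in log2 that only 0.524% of all probe sets exceed in size. Siglecg averaged 38.6 in control set 2 and 121 in control set 1 (offset -1.33, exceeded by 3.86%). Ms4a1 1450912_at and Cd22 1419769_at had offsets of -0.78 and -0.70, which lie with the other 2 outside the 5th to 95th percentile of all probe sets (-0.40 to 0.74). The offsets of Cd81 and Cd37 1419206_at were -0.01 and -0.02. Each change is taken from the controls of its own set, although the fit shares control samples and the variance estimate across the sets. The size of a change depends on the level at which the set placed its controls. The sets differ in their array medians, and their levels were not tested against each other. Set side by side, the PAX5 arrays for Siglecg (519 to 940) also lay above its controls of set 1 (112 to 129). Those for Cd22 1419769_at (65.1 to 122) lay above its controls of set 1 (8.72 to 31.6). The EBF1 arrays for Siglecg (134 to 142) likewise lay above its controls of set 2 (33.6 to 48.0). For Cd22 1419768_at the EBF1 arrays (67.4 to 146) lay below its controls of set 2 (294 to 414). A comparison across sets holds the offset as well as any change, so by itself it shows neither.

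**Figure D4:**
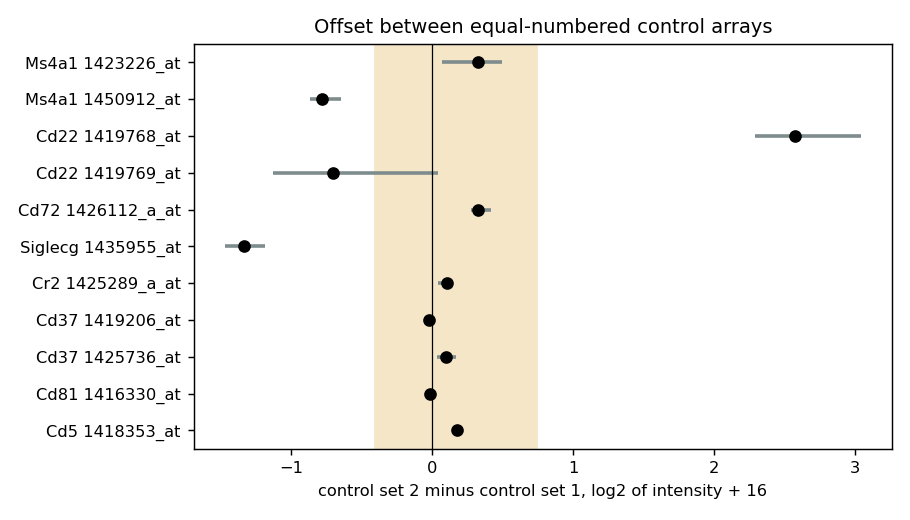
Log2 difference of control set 2 minus control set 1 for each probe set: points are means over the 3 equal-numbered array pairs, bars run from the lowest to the highest pair, and the shaded band holds the 5th to 95th percentile of all probe sets. Cd22 1419768_at lies at 2.57, Siglecg at -1.33, and Cd81 at -0.01.

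Among all 18193 genes, each by its brightest probe set, the profiles closest to Ms4a1 and Siglecg were sought by the root mean square difference of log2 changes over the 8 samples. Nearest to Ms4a1 were Tnnt2, cardiac troponin T, at 0.38, Vpreb1, a surrogate light chain, at 0.51, and Gzma, a granzyme, at 0.55. Their changes with EBF1 were 6.81, 6.48 and 6.43. Nearest to Siglecg were Klhl14, a kelch-like protein, at 0.16, Cartpt, a neuropeptide precursor, at 0.28, and Gpr183, an oxysterol receptor that guides B cells, at 0.39. Their changes with PAX5 were 3.58, 4.20 and 4.06. Likeness here is a description over samples that share controls.

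Other genes of the same pathways and families were read from 6 lists. Of 81 listed genes 72 were measured, each by its brightest probe set. With EBF1 0 rose and 0 fell by limma, where 0.143% of all 18193 genes rose and 0.0055% fell, and 15 (20.8%) had an unadjusted p under 0.05, against 11.3% of all genes. With PAX5 2 rose (2.78%) and 0 fell, against 0.649% and 0.044% of all genes, and 17 (23.6%) had an unadjusted p under 0.05, against 9.06%. These shares are a description, and the lists were not tested as sets. St8sia4, which adds polysialic acid to glycoproteins, read 1803, 1487 and 1496 in PAX5 cells, against 680, 357 and 592 in controls (log2 change 1.62, SE 0.24, adjusted p = 0.030). Cblb, a ubiquitin ligase that dampens receptor signalling, read 915, 703 and 724 in PAX5 cells, against 381, 264 and 337 in controls (1.28, SE 0.18, adjusted p = 0.024). For both genes the PAX5 arrays lay above every control, but neither call was firm. The St8sia4 call was lost without control array 3 (adjusted p = 0.10), EBF1 array 1 or 2 (0.052 and 0.061) or PAX5 array 1 (0.40), with the array number as a block in set 2 (0.0502), with a constant of 1 (0.11) and with set 2 fitted alone without a block (0.17). The Cblb call was lost without control array 2 or 3 (0.079 and 0.10) or PAX5 array 1 (0.34), with a constant of 1 (0.094) and with set 2 alone (0.12). The other St8sia4 probe set and the other 2 of Cblb did not pass.

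By role, of 10 inhibitory receptors 0 passed, and the largest changes were Pecam1, an adhesion receptor, at -1.06 with EBF1 (0.49) and Fcgr2b, the inhibitory IgG receptor of B cells, at 1.05 with PAX5 (0.31). Of 11 signalling enzymes 0 passed with EBF1, where Ptpn6, which encodes SHP-1, was at -0.51 (0.33), and Cblb was the 1 that rose with PAX5. Of 14 siglecs and sialic acid enzymes 0 passed with EBF1, where Siglecf, known from eosinophils, was at -1.03 (0.45), and St8sia4 was the 1 that rose with PAX5. Of 12 other Ms4a genes 0 passed in either comparison: Ms4a7 stood at 0.76 with EBF1 (0.27) and Ms4a4d at -0.54 with PAX5 (0.71). Of 18 further tetraspanins 0 passed, with Tspan9 at -1.20 with EBF1 (0.23) and -0.91 with PAX5 (0.49). Of 7 ligands and paralogs 0 passed, and Bst1, the paralog of Cd38, stood at 1.63 with EBF1 (0.15) and 1.001 with PAX5 (0.49).

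The list medians ran from -0.19 to -0.01 with EBF1, against 0.01 for all genes. With PAX5 they were 0.58 for ligands and paralogs, 0.30 for signalling enzymes and -0.04 to 0.08 for the rest, against -0.01 for all genes. For the difference of the changes they were -0.57 for signalling enzymes, -0.55 for ligands and paralogs, -0.29 for siglecs and sialic acid enzymes and -0.11 to 0.0037 for the rest, against 0.02. For the difference of the changes 0 of the 72 were higher and 3 lower (4.17%) by limma, against 0.374% and 1.04% of all genes, and 26 (36.1%) had an unadjusted p under 0.05, against 16.5%. Lower with EBF1 than with PAX5 were St8sia4 (difference -1.67, adjusted p = 0.019), St3gal6, a sialyltransferase (-1.42, 0.041), and Cblb (-1.10, 0.034). All 3 calls of the difference were lost without PAX5 array 1, with adjusted p of 0.27 for St8sia4, 0.13 for St3gal6 and 0.40 for Cblb. They were also lost without EBF1 array 1 (0.071, 0.12 and 0.087) or EBF1 array 2 (0.064, 0.12 and 0.089), that of Cblb without EBF1 array 3 or control array 3 (0.051 and 0.062), and that of St3gal6 without control array 1, 2 or 3 (0.068, 0.061 and 0.055). With a constant of 1 all 3 missed the threshold (0.061 for St8sia4, 0.095 for St3gal6 and 0.088 for Cblb). With all 12 arrays counted separately they missed it (0.087, 0.077 and 0.12). St3gal6 also missed it with a constant of 64 (0.056) and as the mean of its probe sets (-0.72, 0.064), and its other 4 probe sets did not pass.

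**Figure D5:**
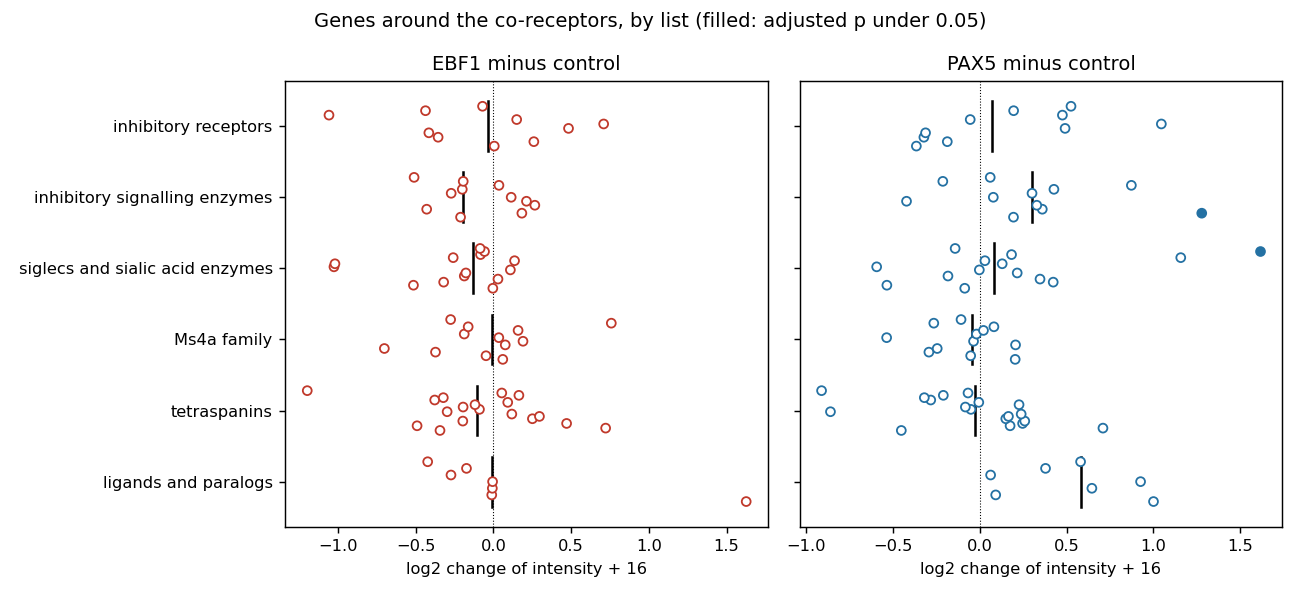
Log2 change of each measured gene in 6 lists (points, 72 genes) with EBF1 and with PAX5; vertical bars are list medians and filled points passed at adjusted p under 0.05. With EBF1 0 points are filled, and with PAX5 the filled points are Cblb at 1.28 and St8sia4 at 1.62.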

How the data were processed

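The files hold deposited intensities on a linear scale, with a column for each of 12 arrays and a row for each probe set. Per the labels' protocols, the cRNA was biotin-labelled by the Affymetrix procedure, and the authors' summarisation, normalization and genome build are not given in the sources used here. The array medians of the 2 sets do not overlap, so each change is taken from the controls of its own set. The fit itself shares control samples and the variance estimate across the sets. Of the intensities of an array, 2.5% to 3.05% equal exactly 1, so low values have little order. Of 45037 probe sets 34945 carried 1 symbol, 932 several and 9160 none. Entrez IDs placed 34741 of the first kind in RefSeq's GRCm38.p6 annotation, and 0 symbols differed.

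Intensities were used as log2(intensity + 16), with no filter or further normalization. On this scale the changes of dim genes are compressed. After removing each probe set's offset between the control sets, equal-numbered controls were averaged, as were PAX5 arrays 2 and 3. All 45037 probe sets were fitted in 1 model with limma 3.58.1 in R 4.3.3 (lmFit, eBayes, 5 residual and 3.68 prior degrees of freedom), with Benjamini-Hochberg adjustment over all of them and a threshold of 0.05. Intervals are 95%. Python 3.11.15 and pandas 2.3.3 gave the group means, control offsets, list and marker counts and motif matches. The figures were drawn with matplotlib 3.10.9.

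Deviations of equal-numbered arrays correlated at 0.35, 0.61 and 0.39 (EBF1 and control) and at 0.41, 0.19 and 0.33 (PAX5 and control), so the numbers were taken to pair the arrays. The main fit is unpaired, and the replicate block, which takes equal numbers as pairs, is an alternative. Members of the 6 gene lists were chosen from general knowledge, and another list is not reported here. The members and lists were chosen with earlier results of these data known. Values of all annotated probe sets of the members are given. Of the lists, the genes that passed with EBF1 or PAX5 are named or, where none did, the largest change. For the difference only the list genes that passed are named. Alternatives were other constants, normalizations, a level filter, all arrays counted separately, sets fitted alone, 1 value per gene, an intensity trend, the block and leaving out each array.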

Additional observations from a re-analysis of the deposited data

How the results depend on the processing

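In every alternative that kept the probe set, both Ms4a1 calls with EBF1, the Siglecg and Cd22 1419769_at calls with PAX5, and the Ms4a1 and Siglecg differences stayed past the threshold with their direction. Over all probe sets, 44 passed with EBF1, against 14 with a constant of 64, 295 with all 12 arrays counted separately, 18 with each set fitted alone, 91 with an intensity trend and 7 with the replicate block, and from 18 to 597 when 1 array was left out. With PAX5 232 passed, against 96 with a constant of 1, 638 with arrays counted separately, 122 with the set alone, 153 with means per gene, and 50 to 263 when 1 array was left out. For the difference 473 passed, against 226 with a constant of 1, 208 with arrays counted separately, 747 with the trend, and 78 to 874 when 1 array was left out. The replicate block was fitted on the 6 arrays of each set alone, with PAX5 arrays 2 and 3 counted separately, and gave 257 calls with PAX5. There the St8sia4 call was lost (0.0502), as it was with set 2 alone and no block, and the other calls of the members and of Cblb held. No block fit was made for the difference.

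Member calls were 2 with EBF1 in the main setting and 1 with the brightest probe set or the mean per gene, since a gene then has 1 value, and 2 to 3 when 1 array was left out. With PAX5 they were 2, and 1 with the level filter, which removes Cd22 1419769_at, or with the brightest probe set. For the difference they were 5, then 3 with arrays counted separately or with either value per gene, and 3 to 5 when 1 array was left out. Values that turned sign did not pass on either side. With EBF1, Cr2 stood at -0.24 with a constant of 1, -0.038 with quantile normalization and -0.039 with median centring, and from -0.21 to 0.34 when 1 array was left out, and Cd37 1425736_at from -0.055 to 0.28. With PAX5, Cd37 1425736_at ran from -0.13 to 0.31. In the difference, Cd37 1425736_at was 0.060 with arrays counted separately and -0.10 to 0.29 when 1 was left out, Cd37 1419206_at -0.26 to 0.051, Cd72 -0.15 to 0.34, Cr2 -0.028 to 0.52, and the Cd22 mean per gene -0.53. St8sia4 with EBF1 ran from -0.30 to 0.13. The cause of these shifts was not tested. Low signal over background limits Cr2, Ms4a1 in controls and Cd22 1419769_at.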
